A study of Mus musculus with 6 samples.

Results

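The region described here is a stretch of mouse chromosome 8 that the deposited transcript table treats as a single locus, chr8:119910360-124345724 (mm10), 4435365 bases long. Its members were chosen by their status and position: all transcripts of that locus carry the mark HIDATA, by which Cuffdiff reports that a locus had more fragments than it would process. There are 417 such transcripts of 100144 in the table, from 182 gene symbols of 41254. No member is above 0 in a wild-type library, and 266 have fragments in at least 1 transgenic library. The wild-type zeros are failed estimates and say nothing of expression, so levels and spread are given for the transgenic libraries only and the groups are not compared for any member.

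The study sequenced RNA of DN3a thymocytes, immature T cell precursors without CD4 and CD8 in the course of T cell receptor beta rearrangement, taken from adult C57BL/6 mice. The labels give 3 libraries of the genotype wild type and 3 of the genotype Tg_Cd2_GATA3, a transgene for GATA3, a zinc finger protein that early T cell differentiation depends on. The labels do not describe the Cd2 element or say in which cells it drives the transgene. They also do not say whether libraries of a group came from separate animals. By the Y-linked genes given below, transgenic replicate 3 did not come from the same animal as replicates 1 and 2. The spread given here is that between libraries and may be technical in part. The transgenic libraries held 42016334, 39161555 and 39022281 fragments. Gata3 itself, outside the region, stood at 25.8, 21.3 and 25.4 FPKM (fragments per kilobase of transcript, scaled to the library's depth) in transgenic replicates 1, 2 and 3, and at 14.99 to 19.8 FPKM in the wild-type libraries. All 8 markers of DN3 cells (among them Ptcra, Rag1 and Dntt) were at 1 FPKM or more, and their summed level was 2858 to 3224 FPKM. The markers of later thymocytes (Cd4, Cd8a and Cd8b1) summed to 3.71 to 8.40 FPKM. Of the 2 early progenitor markers, Kit averaged 12.6 and Flt3 0.0533 FPKM in the transgenic libraries. Of the 4 stroma and epithelium markers only Epcam reached 1 FPKM there, with a mean of 43.0. The 3 markers of NK and innate lymphoid cells summed to at most 0.193 FPKM. Transgenic replicate 3 held 16840 fragments of Y-linked genes, against 16 and 22 in replicates 1 and 2. Wild-type replicate 1 held 18522, against 26 and 25 in wild-type replicates 2 and 3. Both groups therefore mix the sexes. A difference of transgenic replicate 3 from replicates 1 and 2 cannot be told apart from one of sex.

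The region holds no single gene family. It runs from Usp10 to Galnt2 and carries, side by side, a cofactor of GATA proteins (Zfpm1), a corepressor of haematopoietic cells (Cbfa2t3), an amino acid transporter (Slc7a5), replication and repair genes (Cdt1, Gins2 and Fanca), housekeeping genes such as Rpl13 and Cox4i1, and the mouse cluster of 5S ribosomal RNA genes. Zfpm1, or FOG1, binds the amino-terminal zinc finger of GATA proteins and is known from red cell and platelet development. Cbfa2t3, known too as ETO2 or MTG16, is recruited by E proteins and other DNA-binding factors and brings histone deacetylases. An annotated read-through gene, Gm20388, covers nearly all of the locus, from position 119910841 to 124345722. It has 16 exons, of which 1 lies inside Usp10 and 15 lie inside Galnt2, with a first intron of 4384418 bases over nearly everything between. The locus is the longest of 30955 in the table, the next being 2961904 bases long. The transcript of Gm20388 itself is listed at 0 in all transgenic libraries.

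The 5S genes are 51 of the 90 genes listed at 0. They are copies of the gene for an RNA of the large ribosomal subunit, made by RNA polymerase III, and all 51 are listed at 0 in the 3 transgenic libraries. Libraries were depleted of ribosomal RNA, per the labels' protocols, and reads from near-identical copies cannot be placed at 1 of them, so these zeros give no level of 5S RNA.

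Stretches between neighbouring start sites are shown for pairs of genes that are transcribed away from each other and were both measured, and 250 bases upstream of the start are shown for Zfpm1, Cbfa2t3 and Cdt1. They come from the RefSeq promoter table (GRCm38.p6), in which 67 of the 182 genes have an entry. The motifs searched on both strands, marked by capitals, were 4 GATA forms (AGATAA with its variant TGATAA, and AGATAG with its variant TGATAG), the ETS form CCGGAA, the CCAAT box and the TATA form TATAAA. Zfpm1 is chr8:122281891-122282140, plus strand. Cbfa2t3 is chr8:122699110-122699359, minus strand. Cdt1 is chr8:122567765-122568014, plus strand. The stretch between Slc7a5 and BC048644 is chr8:121907695-121907832, plus strand. The stretch between Rnf166 and Ctu2 is chr8:122476065-122476142, plus strand. The stretch between Galns and Trappc2l is chr8:122611464-122611639, plus strand. The stretch between Ankrd11 and RP23-460F21.1 is chr8:123042278-123042465, minus strand. The stretch between Taf5l and Urb2 is chr8:124021398-124021507, plus strand.
Zfpm1: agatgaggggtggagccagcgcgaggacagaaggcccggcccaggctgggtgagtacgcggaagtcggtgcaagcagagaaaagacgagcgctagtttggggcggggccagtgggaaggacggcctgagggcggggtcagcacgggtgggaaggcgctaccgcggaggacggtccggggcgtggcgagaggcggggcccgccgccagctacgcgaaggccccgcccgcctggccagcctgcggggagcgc
Cbfa2t3: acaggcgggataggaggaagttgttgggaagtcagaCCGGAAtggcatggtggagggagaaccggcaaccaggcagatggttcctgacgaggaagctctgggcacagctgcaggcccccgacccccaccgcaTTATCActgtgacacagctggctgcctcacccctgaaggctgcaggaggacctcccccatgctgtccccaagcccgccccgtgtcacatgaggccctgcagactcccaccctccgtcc
Cdt1: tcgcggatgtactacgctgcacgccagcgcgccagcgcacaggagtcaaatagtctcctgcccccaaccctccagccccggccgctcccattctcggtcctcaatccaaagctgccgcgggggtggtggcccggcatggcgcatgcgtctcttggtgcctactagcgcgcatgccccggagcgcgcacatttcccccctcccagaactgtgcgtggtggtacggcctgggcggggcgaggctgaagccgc
Slc7a5/BC048644: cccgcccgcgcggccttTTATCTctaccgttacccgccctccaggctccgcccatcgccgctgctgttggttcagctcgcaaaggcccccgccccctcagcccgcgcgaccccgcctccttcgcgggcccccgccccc
Rnf166/Ctu2: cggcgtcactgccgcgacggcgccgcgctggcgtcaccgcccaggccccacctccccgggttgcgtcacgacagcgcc
Galns/Trappc2l: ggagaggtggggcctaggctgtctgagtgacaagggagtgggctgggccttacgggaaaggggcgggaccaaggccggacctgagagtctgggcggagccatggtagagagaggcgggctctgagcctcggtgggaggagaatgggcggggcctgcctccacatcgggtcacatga
Ankrd11/RP23-460F21.1: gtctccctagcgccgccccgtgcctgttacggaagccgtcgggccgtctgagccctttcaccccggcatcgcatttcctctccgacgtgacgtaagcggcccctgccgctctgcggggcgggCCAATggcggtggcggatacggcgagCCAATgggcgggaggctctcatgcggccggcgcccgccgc
Taf5l/Urb2: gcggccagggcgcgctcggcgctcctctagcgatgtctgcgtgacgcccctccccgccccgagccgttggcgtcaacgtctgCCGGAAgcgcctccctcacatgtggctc
The Cbfa2t3 stretch holds 1 TGATAA and 1 CCGGAA, and the stretches of Zfpm1 and Cdt1 hold none of the motifs, nor do those of Rnf166 with Ctu2 and Galns with Trappc2l. Over all 32851 promoter windows of that table, cut to the same 250 bases, 26.5% hold a GATA form and 12.0% hold CCGGAA. The stretch of 138 bases between Slc7a5 and BC048644 holds 1 AGATAA, and 14.7% of all promoters cut to that length hold a GATA form. The Ankrd11 pair holds 2 CCAAT in 188 bases, against 28.2% of promoters of that length with at least 1. The Taf5l and Urb2 pair holds 1 CCGGAA in 110 bases, against 7.67% of promoters of that length. TATAAA occurs in none of the 8 stretches, against 4.72% of all promoters cut to 78 bases and 12.4% of those cut to 250 bases. G and C made up 64% to 79.5% of the 8 stretches. The median over all promoters was 55.1% when cut to 78 bases and 52.4% when cut to 250. The shares of promoters with a motif were not matched for this. At least 1 motif is held by 4 of the 8. The share of all promoters with any of the motifs was not computed, so that count has no background. A match is a run of letters and not a measured binding site.

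Of the 182 genes, 92 had fragments in a transgenic library and 90 were listed at 0. A mean of at least 1 FPKM was reached by 59 genes, of at least 10 FPKM by 36 and of at least 100 FPKM by 3. Counts are given here by the annotated type of gene. Of 74 protein-coding genes 49 reached 1 FPKM, or 66.2%, and among the 21320 protein-coding genes outside failed loci 10374 did, or 48.7%. The median of those that reached it was 18.8 FPKM in the region and 16.9 FPKM elsewhere. Members were chosen by a mark for loci with more fragments than Cuffdiff would process, so neither comparison is independent of that choice. All 8 microRNA genes, 3 small nuclear RNA genes and 3 small nucleolar RNA genes were listed at 0, as were the 51 5S genes. Of 14 long intergenic noncoding RNAs 7 were above 0 and 1 reached 1 FPKM. Of 8 antisense RNAs 6 were above 0 and 3 reached 1 FPKM. Shares over all genes of these noncoding types were not computed, so the counts have no background. Protein-coding genes listed at 0 included Foxc2, Foxl1, Rhou and Spata33. In RNA of a whole population, fewer cells that express a gene and less of its RNA per cell cannot be told apart.

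**Figure D1:**
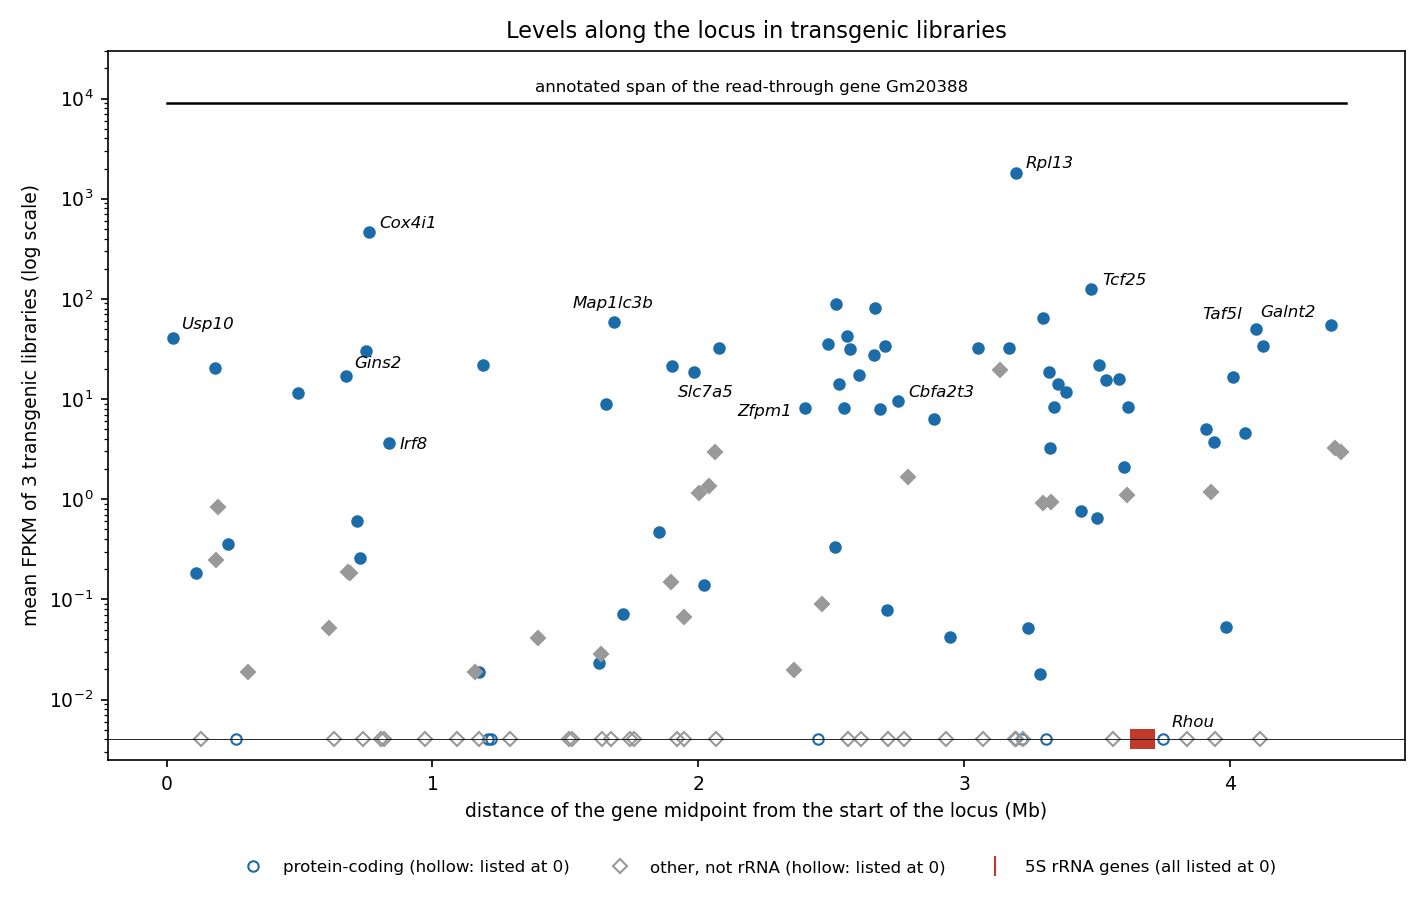
Mean FPKM of the 3 transgenic libraries (log axis) against the distance of each gene's midpoint from the start of the region in Mb, for the genes with a position, Gm20388 drawn as a line. Measured protein-coding genes lie along the whole region, Rpl13 and Cox4i1 stand highest at 1826 and 462 FPKM, and the 51 5S genes form 1 block listed at 0.

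The share of each library held by the region was stable. The 182 genes took 230584, 213351 and 212312 fragments in transgenic replicates 1, 2 and 3, or 0.549%, 0.545% and 0.544% of the library. Rpl13 alone took 27.6%, 26.9% and 27.0% of these.

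Among genes of transcription and chromatin, all 15 on the list used here are members and 11 reached 1 FPKM, with means from 3.68 to 124 FPKM. Zfpm1 was at 8.93, 7.49 and 8.02 FPKM in transgenic replicates 1, 2 and 3, a mean of 8.15 ± 0.727 (SD, n = 3). Cbfa2t3 was at 10.5, 8.48 and 9.90 FPKM, a mean of 9.61 ± 1.03 (SD, n = 3). On FPKM both were lowest in replicate 2 and the ranges of the 2 genes overlapped. Fragments scaled to their library (CPM, TMM-scaled) gave another order, with Zfpm1 lowest in replicate 1 at 21.7, 24.2 and 25.2 and Cbfa2t3 lowest in replicate 3 at 32.1, 31.4 and 30.6. Irf8, a transcription factor of B cell, dendritic cell and myeloid development, was at 4.17, 3.40 and 3.47 FPKM and lay below both in every library. Tcf25, whose protein is also part of the ribosome quality control machinery, was the highest of the list at 129, 124 and 120 FPKM. Taf5l, a subunit of histone acetyltransferase complexes, followed at 48.1, 51.5 and 50.5 FPKM. Zc3h18, which links capped RNA to nuclear decay, had 36.5, 34.5 and 36.6 FPKM. These ranges did not overlap, so the order of Tcf25, Taf5l and Zc3h18 was the same in all 3 libraries. Ankrd11, a regulator that recruits histone deacetylases, had 31.5, 30.04 and 35.8 FPKM and overlapped Zc3h18. The forkhead genes Foxc2 and Foxl1, known from mesenchymal and vascular development, were listed at 0, and Foxf1 averaged 0.0188 FPKM.

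Since Irf8 is also a gene of other blood cells, the summed levels of their markers stand beside it. The 5 B cell markers summed to 31.5 to 37.8 FPKM, nearly all of it Cd79b, with Pax5 at 0 in all 3 libraries. The 5 myeloid markers summed to 15.4 to 17.3 FPKM, nearly all of it Lyz2, with S100a8 at 0. The 4 dendritic cell markers summed to 1.03 to 1.57 FPKM, with Siglech and Cd209a at 0. In each of these lists 1 marker averaged 1 FPKM or more. Their part in the level of Irf8 was not tested.

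**Figure D2:**
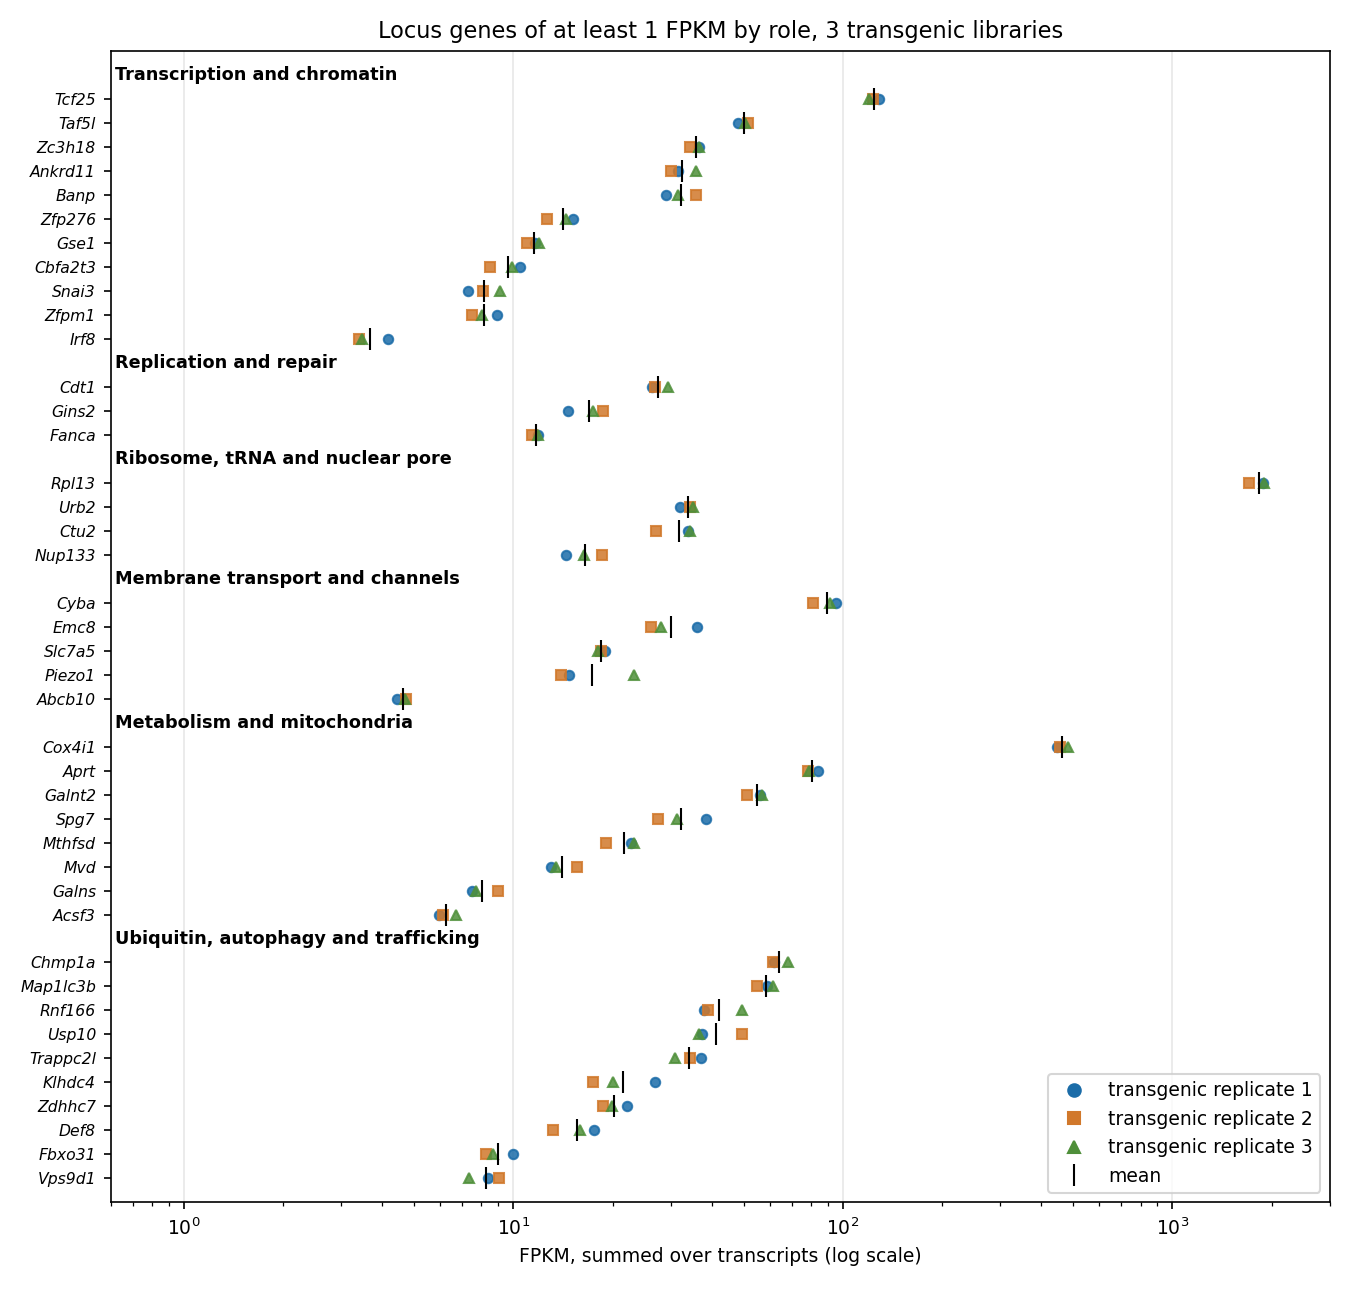
FPKM in each of the 3 transgenic libraries (symbols) and their mean (bar) on a log axis. Drawn are genes of the region of at least 1 FPKM grouped by role, without those known for other tissues. Genes in no role list are not drawn, among them Rab4a, Gm10612 and Gm22314, whose spread was among the highest. For most genes drawn the 3 symbols lie close together beside the distance between genes, while Piezo1, Klhdc4 and Usp10 are spread more widely.

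The partners of Zfpm1 and Cbfa2t3 lie elsewhere in the genome and give their levels a setting. Of the GATA factors, Gata3 averaged 24.2 FPKM, Gata1 3.64 ± 1.32 (SD, n = 3) and Gata2 0.0138, and the Zfpm1 paralog Zfpm2 was listed at 0 in all 3 libraries. Gata3 was above Zfpm1 in every library and Gata1 below it. Of the Cbfa2t3 paralogs, Cbfa2t2 averaged 14.4 ± 2.73 FPKM (SD, n = 3) and Runx1t1 averaged 0.00152. Cbfa2t2 was above Cbfa2t3 in each library, though only at 11.3 against 10.5 FPKM in replicate 1. That margin is small beside the gap across the region's edge given below, so the order may not hold there. The E proteins Tcf12 and Tcf3, to which Cbfa2t3 binds, averaged 110 and 66.2 FPKM. Lyl1, Tal1 and Lmo2, with which it works in blood stem cells and red cell precursors, averaged 0.782, 0.182 and 0.137 FPKM. Of these partners and paralogs, Gata3, Gata1, Cbfa2t2, Tcf3 and Tcf12 averaged 1 FPKM or more, and Gata2, Zfpm2, Runx1t1, Lyl1, Tal1 and Lmo2 averaged less. A limit applies to levels set across the edge of the region: in genes with 1 listed transcript of 1 to 5 kb, the median FPKM per fragment per kb was 0.0199, 0.0214 and 0.0223 for 13 to 14 members and 0.0226, 0.0246 and 0.0251 for 2366 to 2374 other genes, a gap whose cause was not tested.

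**Figure D3:**
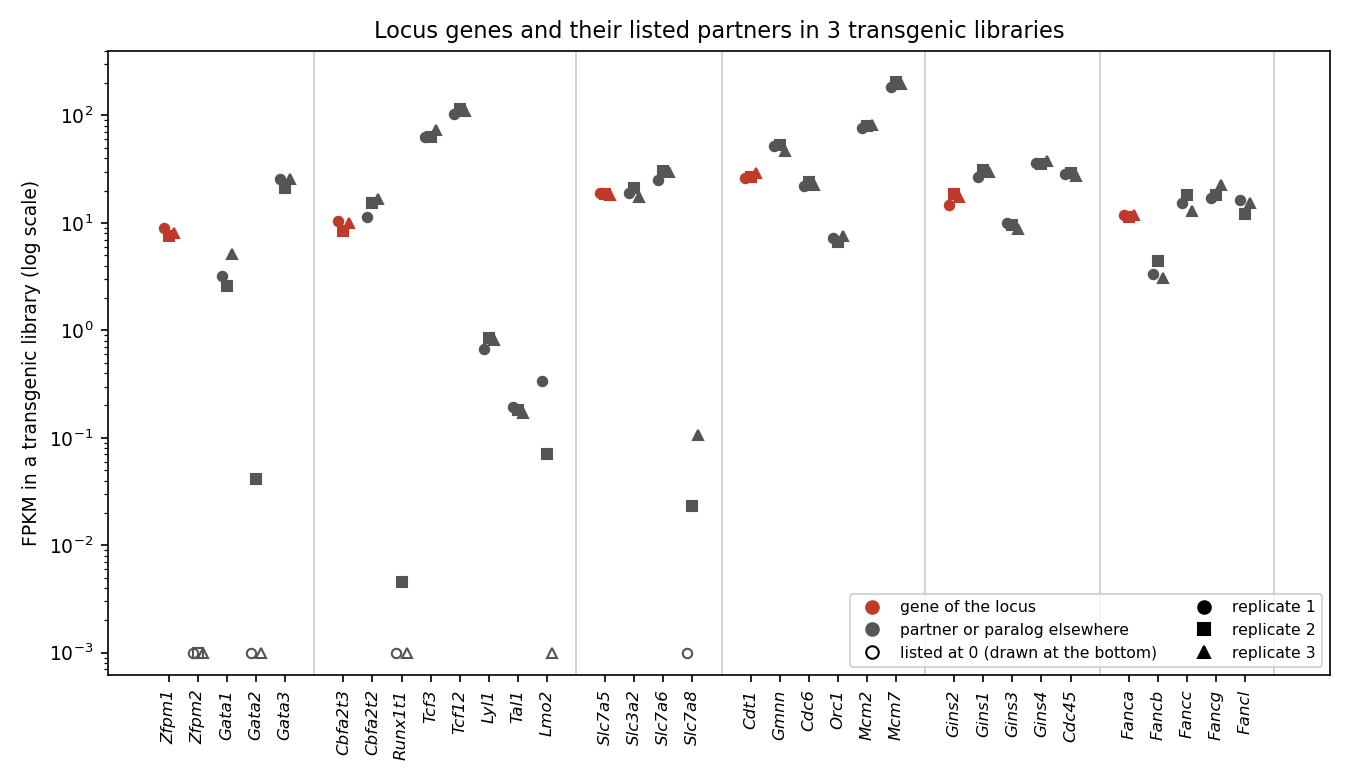
FPKM in each transgenic library (log axis) of 6 genes of the region (red) and of their listed partners or paralogs elsewhere (grey), with values listed at 0 drawn hollow at the bottom. Zfpm1 lies between Gata3 and Gata1, Slc7a5 lies at the level of Slc3a2, and Cdt1, Gins2 and Fanca lie within the range of their partners.

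All 3 replication and repair genes were measured. Cdt1, which loads the MCM helicase onto replication origins, was at 26.3, 27.0 and 29.4 FPKM, a mean of 27.6 ± 1.65 (SD, n = 3). Its inhibitor geminin (Gmnn) averaged 50.6 ± 3.27 FPKM (SD, n = 3) and was higher in each library. Its co-loader Cdc6 averaged 22.8, the origin subunit Orc1 7.14, and the helicase subunits Mcm2 and Mcm7 79.3 and 196 FPKM. Gins2, a subunit of the GINS complex that activates the helicase, was at 14.7, 18.7 and 17.5 FPKM, a mean of 16.9 ± 2.07 (SD, n = 3). The other GINS subunits averaged 29.2 FPKM for Gins1, 9.43 for Gins3 and 36.5 for Gins4. Gins2 was above Gins3 and below the other pair in each library. Fanca, a core subunit of the Fanconi anaemia complex that acts on DNA crosslinks, was at 11.9, 11.4 and 11.9 FPKM. Fancg, its binding partner, averaged 19.3, Fancc 15.6, Fancl 14.6 and Fancb 3.60 FPKM. Fanca was below Fancg, Fancc and Fancl in each library and above Fancb. In replicate 2 Fancl was at 12.1 FPKM, and in replicate 3 Fancc was at 12.9 FPKM. Both margins are small beside the gap across the region's edge given above, so these orders may not hold.

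The ribosome, tRNA and nuclear pore genes were all 4 above 1 FPKM. Rpl13, a protein of the large ribosomal subunit, was at 1882, 1701 and 1896 FPKM, a mean of 1826 ± 109 (SD, n = 3), and was the highest gene of the region. Among 50 other genes taken by their Rpl symbol the median was 1361 FPKM, with 10 above Rpl13 and 40 below. Their means ran from 0 to 4217 FPKM. A choice by symbol can take in unexpressed paralogs, which lower the median and raise the number below Rpl13. Urb2, needed to make the large subunit, averaged 33.9 ± 1.63 FPKM (SD, n = 3). Ctu2, which adds sulphur to transfer RNA, averaged 31.7 ± 4.02 FPKM, and Nup133, a scaffold of the nuclear pore, 16.4 ± 2.09 FPKM (SD, n = 3 for both). Copies of ribosomal protein genes elsewhere can share reads with Rpl13, so its level depends on how the authors' software placed them.

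Of 7 listed genes of membrane transport and channels, 6 are members and 5 reached 1 FPKM. Slc7a5, the light chain of the LAT1 transporter that brings large neutral amino acids into activated and dividing T cells, was at 19.0, 18.4 and 18.1 FPKM, a mean of 18.5 ± 0.450 (SD, n = 3). Its heavy chain Slc3a2 was at 18.9, 21.1 and 17.3 FPKM, and the ranges of the chains overlapped. Slc7a6, another light chain, averaged 28.5 FPKM and was higher in each library, and Slc7a8 averaged 0.0430 FPKM. Cyba, the p22phox subunit of the phagocyte NADPH oxidase, was at 95.5, 81.0 and 91.2 FPKM. Its partner Cybb, the catalytic subunit, averaged 0.261 FPKM, so the level of Cyba was not matched by that subunit. Piezo1, a mechanically gated cation channel, was at 14.7, 13.9 and 23.3 FPKM, highest in replicate 3. On scaled fragments it was at 75.7, 76.3 and 88.0 CPM, so the gap to replicate 3 was much smaller there. Emc8, of the complex that inserts proteins into the endoplasmic reticulum membrane, averaged 30.05 ± 5.26 FPKM (SD, n = 3).

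Metabolic and mitochondrial genes were measured in 8 of 9 cases at 1 FPKM or more. Cox4i1, a subunit of cytochrome c oxidase, was at 447, 455 and 483 FPKM and came second in the region, while its paralog Cox4i2 was listed at 0. Aprt, which salvages adenine, had 84.0, 78.6 and 78.9 FPKM. Galnt2, which starts O-linked glycans and ends the region, averaged 54.7 ± 3.15 FPKM (SD, n = 3). Spg7, a protease of the inner mitochondrial membrane, averaged 32.4 ± 5.53 FPKM (SD, n = 3). Cox4i1, Aprt and Galnt2 kept this order in every library.

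Of 12 listed genes of ubiquitin, autophagy and trafficking, 11 are members and 10 reached 1 FPKM. Chmp1a, of the ESCRT-III membrane-cutting machinery, had 61.8, 61.3 and 68.3 FPKM. Map1lc3b, the LC3B protein of autophagosomes, had 58.7, 55.0 and 61.3 FPKM, and its paralog Map1lc3a averaged 8.33. The ranges of Chmp1a and Map1lc3b overlapped slightly, though Chmp1a was higher in each library. Rnf166, a ubiquitin ligase, averaged 42.2 ± 6.44 FPKM (SD, n = 3), and Usp10, a deubiquitinase, had 37.3, 49.4 and 36.5 FPKM. The highest library differed between them, replicate 3 for Rnf166 and replicate 2 for Usp10. Trappc2l, of a vesicle tethering complex, averaged 34.2 ± 2.99 FPKM (SD, n = 3).

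Of 16 listed genes known for other tissues, 14 are members, of which 2 reached 1 FPKM and 4 were listed at 0. Tubb3, a tubulin known as a marker of neurons, had 23.7, 21.4 and 20.9 FPKM. Gas8, of the motile cilium's regulatory complex, averaged 8.35 ± 1.06 FPKM (SD, n = 3). The next members of the list were Mc1r, the melanocortin receptor of pigment cells, at 0.657 FPKM and Jph3, a junction protein of neurons, at 0.470 FPKM. Both of these also had fragments in all 3 libraries. The muscle actin gene Acta1 averaged 0.0535 FPKM and the muscle cadherin gene Cdh15 0.0425 FPKM.

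Levels also differed within pairs of genes that start close together on opposite strands. In 15 pairs of members the start sites lay within 1000 bases, and in 8 of these both genes reached 1 FPKM. Cox4i1 belongs to a pair with Emc8 and to another with Gm27021. The same share over the rest of the genome was not computed, so this count has no background. In 5 of the 8 the start sites were separated and the genes ran away from each other, and the ratio of the higher to the lower mean ran from 1.33 to 16.1. Rnf166 and Ctu2, 78 bases apart, averaged 42.2 and 31.7 FPKM, and Taf5l and Urb2, 110 bases apart, averaged 50.04 and 33.9 FPKM. Taf5l was above Urb2 in each library. Ankrd11 and the noncoding RNA RP23-460F21.1, with 188 bases between them, averaged 32.5 and 19.4 FPKM. Trappc2l averaged 34.2 FPKM beside 8.05 for Galns, an enzyme of lysosomal glycan breakdown. At the other end, Slc7a5 was 16.1-fold above the noncoding BC048644. In the other 3 pairs the start sites crossed, so that the genes overlap, and the ratio ran from 1.71 for Zfp276 and Vps9d1 to 23.8 for Banp and Gm27011, with Cox4i1 15.4-fold above Emc8. Chmp1a averaged 63.8 FPKM while Spata33, 68 bases away on the other strand, was listed at 0.

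Overlapping genes put a limit on single members. Among genes of at least 1 FPKM, 12 pairs overlap, 11 of them on opposite strands, with 21 genes involved. Gse1 and Gins2 share 2758 bases, Ctu2 and Piezo1 2441, Zfp276 and Fanca 1446, and Cbfa2t3 and its antisense RNA Gm10612 1250. The sources used here do not say whether the counting used strand, so reads in these stretches may belong to either gene.

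The spread between transgenic libraries was small for most members. Over the 59 genes of at least 1 FPKM, the median coefficient of variation (CV, the SD over the 3 libraries as a percentage of the mean) was 10.4%, against 9.39% over 11950 other genes. With fragments scaled by edgeR's TMM factors it was 7.97% in the members and 7.42% in the others. Counting error alone would give a median of 2.31%. A CV under 10% was seen for 27 of the 59, under 20% for 50 and under 30% for 54. Replicate 3 held the highest value for 24 of the 59, replicate 1 for 19 and replicate 2 for 16, or 40.7%, 32.2% and 27.1%. Among the other genes replicate 3 was highest in 40.0%, replicate 1 in 26.3% and replicate 2 in 33.7%. Orders and CVs on FPKM depend on the scale: with FPKM rescaled to the same sum in each library (TPM), replicate 1 was highest for 55 of the 59 and the median CV was 56.4%. The FPKM of all transcripts sum to 1181838, 1905773 and 4027910 in replicates 1, 2 and 3, and transcripts under 200 bases hold 51.1%, 69.98% and 85.6% of these sums.

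The lowest CVs belonged to Fanca at 2.27%, Slc7a5 at 2.43%, Spata2l at 2.88%, Abcb10, a mitochondrial transporter, at 3.29% and Zc3h18 at 3.38%. The highest belonged to Gm22314 at 97.3%, Gm10612 at 39.4%, Gm27011 at 37.5%, Rab4a, a GTPase of endosome recycling, at 31.8% and BC048644 at 31.3%. Gm22314 rested on 6.06, 0 and 10.1 fragments, and its sequence lies within Gas8 on the same strand. Rab4a rested on 195, 370 and 307 fragments, with a counting CV of 5.86%. It was at 3.24, 6.32 and 5.52 FPKM, lowest in replicate 1.

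For several members the FPKM and the fragments disagreed on the spread. Piezo1 had 3163, 2989 and 3454 fragments, a CV of 8.67% after scaling, beside 29.8% on FPKM. Usp10 had 3673, 3800 and 3487 fragments, a CV of 5.52% beside 17.6%. Fanca went the other way, with 1857, 1668 and 1408 fragments, a CV of 10.99% beside 2.27%. The lowest spread on FPKM was therefore not the lowest on fragments, whereas Slc7a5 was steady on both, at 2.43% and 2.64%. The 22 members with 1 listed transcript had a median CV of 10.6% on FPKM and 10.9% on fragments. The 37 with 2 or more had 10.4% and 5.52%. Among other genes of at least 1 FPKM the same medians were 10.5% and 9.85% for 3964 with 1 transcript, and 9.02% and 6.73% for 7986 with more.

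**Figure D4:**
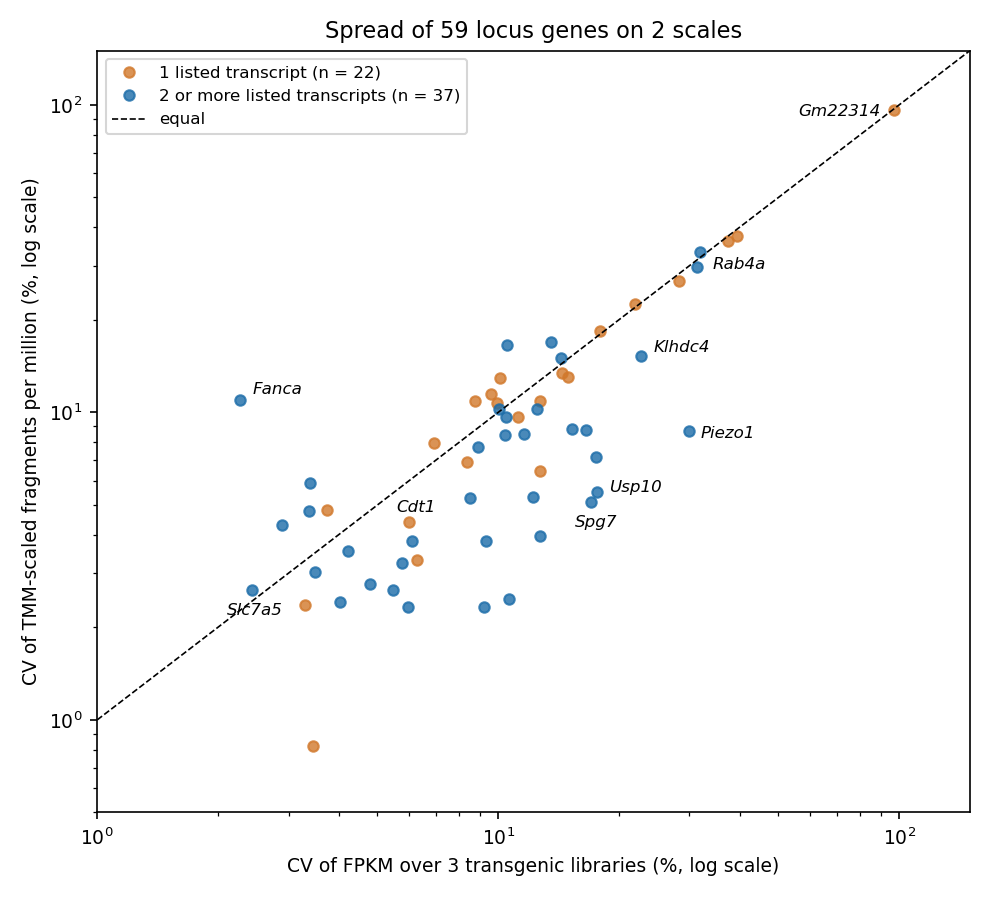
CV over the 3 transgenic libraries on FPKM (x axis, log) and on TMM-scaled fragments (y axis, log) for the 59 genes of at least 1 FPKM, coloured by the number of listed transcripts. Genes with 1 transcript mostly lie near the line of equal CV, while Piezo1, Usp10 and Spg7 lie below it and Fanca above it.

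The FPKM of a gene is the sum over its transcripts, and these differed in how evenly they were estimated. The main transcript of Piezo1, ENSMUST00000067252, was at 6.20, 5.37 and 6.92 FPKM, 35.6% of the gene. A transcript of 506 bases, ENSMUST00000152596, was listed at 0 in replicate 1 and was at 3.10 and 4.39 FPKM in the other two, from 37.5 and 53.0 fragments. The main transcript of Usp10, ENSMUST00000108988, was at 16.0, 16.1 and 15.8 FPKM, 38.8% of the gene, and varied far less than the gene's sum. Klhdc4 had a transcript of 544 bases, ENSMUST00000172507, at 6.07 FPKM in replicate 1 and at 0 in the other two. Klhdc4 also varied in its fragments, with 2677, 1868 and 2068 and a CV of 15.3% after scaling, and that transcript held 123 of the 2677. For Usp10, a transcript of 459 bases, ENSMUST00000139648, was at 1.73, 7.45 and 3.82 FPKM from 19.1, 76.4 and 38.8 fragments.

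Zfpm1 and Cbfa2t3 were divided too. ENSMUST00000054052 held 60.9% of Zfpm1 and was at 4.39, 4.76 and 5.74 FPKM, highest in replicate 3, where the gene's sum was not. ENSMUST00000127984 held 47.3% of Cbfa2t3, at 4.94, 4.22 and 4.49 FPKM. On scaled fragments the CV of Cbfa2t3 was 2.47% and that of Zfpm1 7.72%. One transcript held 98.0% of Slc7a5, 99.3% of Rpl13, 97.2% of Cox4i1, 86.1% of Gins2 and 76.4% of Irf8, and the main transcript of Fanca held 60.9%.

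**Figure D5:**
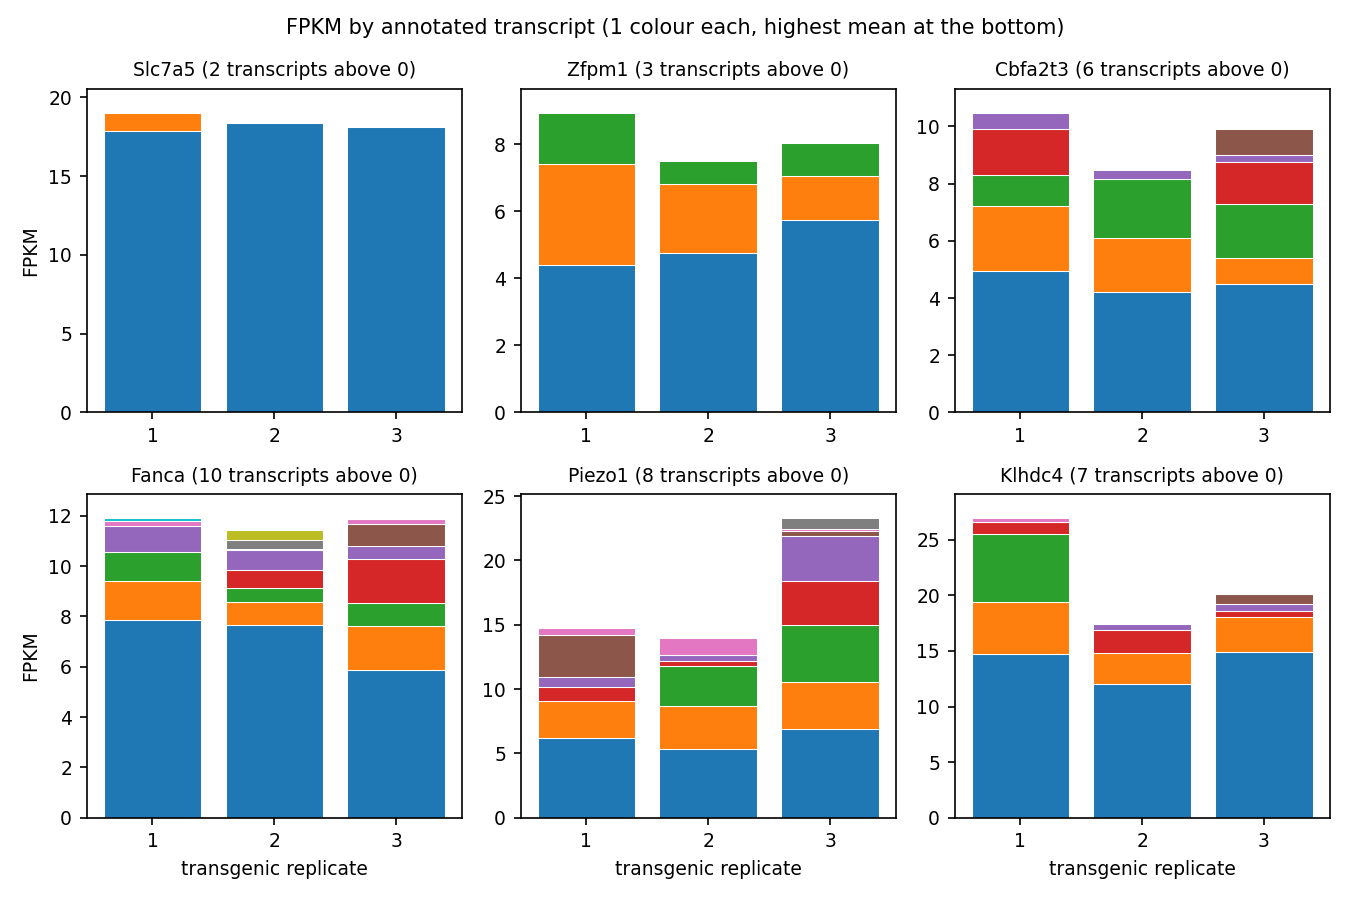
FPKM of 6 genes in the 3 transgenic libraries, each bar stacked by annotated transcript with the highest mean at the bottom. Slc7a5 is nearly all 1 transcript at about the same height in each library, while in Piezo1 the bottom transcript is similar in the 3 libraries and the short transcripts above it are not.

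On each side of the region, the 2 nearest genes with a mean of at least 1 FPKM were estimated in both groups. On the left, Klhl36 lies 33365 bases away and averaged 5.92 ± 0.545 FPKM in the transgenic and 5.53 ± 0.324 in the wild-type libraries, and Cotl1 averaged 35.7 ± 3.58 and 35.1 ± 3.40 FPKM (SD, n = 3 each). On the right, Cog2 lies 175043 bases away and averaged 17.3 ± 1.94 and 17.6 ± 1.07 FPKM, and 2310022B05Rik averaged 2.07 ± 0.395 and 1.88 ± 0.246 FPKM (SD, n = 3 each). The first and last members, Usp10 and Galnt2, have values in the transgenic libraries only, as the choice of members fixes.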

How the data were processed

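RNA of DN3a thymocytes was extracted with QIAGEN RNeasy Micro and depleted of ribosomal RNA with Ribo-Zero Gold, per the labels' protocols. TopHat2, Cuffdiff and mm10 are named in the submitters' processing notes, without versions. The sources used here give neither the annotation nor the strand setting. For each transcript and library the authors deposited an FPKM value and an estimated count of fragments, per the file headers. FPKM and fragments were summed here over the transcripts of a gene symbol. Means, SDs and CVs are over the 3 transgenic libraries; no test was run, because the wild-type values of these genes are failed estimates.

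Levels of at least 1 FPKM were counted. Fragments were scaled with TMM factors (edgeR 4.0.16, R 4.3.3). The CV calculation was tested on simulated data, and the TMM scaling was not. Spread on the log2 scale used a pseudocount of 0.1 FPKM. Positions and gene types are those of GENCODE M21 (GRCm38), matched by gene ID for 180 of the 182 genes, all inside the region.

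The members and the lists of roles, partners and markers were chosen with earlier results of these data known. Named by rule were Zfpm1, Cbfa2t3, Slc7a5, Cdt1, Irf8, Gins2, Fanca, Rpl13 and Cox4i1, the 15 highest members, up to 4 per role, the 5 highest and 5 lowest CVs, main transcripts, 2 flanking genes per side and the partners. Klhdc4, the divergent and overlapping pairs, other members listed at 0 and the short transcripts were named after their values were seen. The alternatives were other minimum levels, pseudocounts and scalings, and leaving out each library. The sequences of the 5S genes are not reported here.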

Additional observations from a re-analysis of the deposited data

How the results depend on the processing

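No paired analysis was possible because the results come from no test and from 1 group. The count of 59 genes of at least 1 FPKM was 65 at a minimum of 0.5 FPKM, 45 at 5 FPKM, 54 with FPKM rescaled to the same total per library (TPM), and 55 where each library had to reach 1 FPKM (an alternative chosen after seeing the data). Leaving out each library gave 58 to 60. The median CV of 10.4% became 15.1% with no minimum level, where genes with few fragments enter, and 56.4% after rescaling to TPM (chosen after seeing the data). Of 38 named genes, 1 kept its mean within 1 SD under TPM. Scaled fragments gave a median CV of 7.97% to 8.06%. Leaving out each library gave a median CV of 7.03% to 11.8%, the lowest without transgenic replicate 2. The median level of the 59 genes, 16.4 FPKM, became 8.58 after rescaling to TPM, and was 15.4 to 17.5 FPKM with each library left out. The share of fragments was 0.546% on average and 0.544% to 0.547% with a library left out. The median SD of log2 levels was 0.15 in the members and 0.13 in other genes. Depth limits the rare members: 33 genes lay above 0 and below 1 FPKM.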

Other observations

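The deposited fragment estimates of the region differ in form from those elsewhere. In the transgenic libraries the smallest value above 0 per transcript was 2.44 fragments, and 1.09% of 645 values above 0 were under 3 fragments. Outside the failed loci 8.44% of 136801 such values were under 3 fragments. Genes with 1 listed transcript were whole numbers (within 0.001) in 95.5% of cases elsewhere. In the region, the decimals of such genes were 0.06 for 35 of 36 in transgenic replicate 1, 0.04 for 36 of 36 in replicate 2 and 0.07 for 34 of 35 in replicate 3, so nearly every gene carried the same fraction of a fragment within a library. The cause was not tested.

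The table marks 8 other loci with the same status. They hold 49 transcripts, of which 1 had fragments in a transgenic library, against 266 of 417 here.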
